A study of Mus musculus with 6 samples.

Results

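Genes of DNA replication and S phase were followed in LSK cells, the lineage-negative, Sca-1+ and Kit+ cells of mouse bone marrow, among which are blood-forming stem cells and early progenitors. The members were 45 genes chosen by name, with earlier results of these data known. All 45 were found in the deposited table of 55487 genes. Wild-type littermates gave 3 libraries, and Mc5r-null (Mc5r-/-) mice gave the other 3; in the null mice the gene of a melanocortin receptor is disrupted. The series describes the mice of both genotypes as irradiated. Dose, interval after irradiation, age, strain and the kind of null allele are not given in the sources used here. Unirradiated cells were not analysed here. Nothing states how many mice stand behind a library, so the SDs and p-values cover the spread of these libraries alone, and that spread may be technical.

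Replication starts at origins that are licensed in G1, when the origin recognition complex, Cdc6 and Cdt1 load the MCM2-7 helicase onto DNA. The helicase is switched on in S phase by Cdc45, the GINS complex and Mcm10, after which primase, the replicative polymerases, the PCNA clamp and its loader RFC copy the strands, and ribonucleotide reductase and related enzymes supply the deoxynucleotides. Cyclin E with CDK2 and the E2F transcription factors drive entry into this programme, and many of its genes are E2F targets. In the marrow most long-term stem cells are quiescent, whereas committed progenitors cycle more often, so these transcripts are commonly read beside the make-up of the sorted cells.

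Gene counts summed to between 13983016 and 14953169 per library. Mc5r held 157 to 198 counts in the wild-type libraries and 0, 0 and 1 in the Mc5r-null libraries. The defining LSK genes Kit (3529 to 3650 counts) and Ly6a (703 to 1090 counts) were present in each library. Xist, the RNA of the inactive X chromosome, had 1167 to 1281 counts in wild type and 0, 2 and 2 in Mc5r-null, while the Y-linked Eif2s3y had 857 to 910 and 752 to 880 counts. Genotype and the sex make-up of the libraries cannot be told apart in these groups. Immunoglobulin transcripts took a share of 2.14 ± 0.0018% in wild type against 6.91 ± 0.049% in Mc5r-null libraries (SD, n = 3 each), which lowers the CPM (counts scaled to the library's total of gene counts) of the other genes in Mc5r-null. The fold changes given here are fitted ones, after TMM scaling between libraries, and are smaller than the ratios of CPM for genes that fell.

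The promoters of 4 members are shown first, because E2F words are frequent in front of replication genes and because the 4 genes differ in how they responded. Cdc6 and Mcm5 were lower in Mc5r-null and Mcm6 and Pola1 were not called. Each run is the 160 bases before the RefSeq transcription start on GRCm38, 5′ to 3′ on the gene's own strand, at chr11:98907991-98908150 (plus) for Cdc6, chr8:75109349-75109508 (plus) for Mcm5, chr1:128359706-128359865 (minus) for Mcm6 and chrX:93632156-93632315 (minus) for Pola1. None of these windows holds an exonic base in the GENCODE M21 annotation. The Cdc6 window nevertheless lies inside the gene as annotated there, which starts at 98907801, so it is upstream of the RefSeq start only. Capitals mark the E2F words TTTGGCGC, TTTCCCGC, TTTGCCGC and TTTCGCGC on either strand.
Cdc6: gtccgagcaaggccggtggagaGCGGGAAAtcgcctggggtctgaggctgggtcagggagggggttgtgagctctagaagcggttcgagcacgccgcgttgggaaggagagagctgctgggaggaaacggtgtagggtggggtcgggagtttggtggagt
Mcm5: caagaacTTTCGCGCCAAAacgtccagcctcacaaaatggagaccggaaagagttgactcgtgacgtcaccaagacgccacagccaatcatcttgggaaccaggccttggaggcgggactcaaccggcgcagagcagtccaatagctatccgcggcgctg
Mcm6: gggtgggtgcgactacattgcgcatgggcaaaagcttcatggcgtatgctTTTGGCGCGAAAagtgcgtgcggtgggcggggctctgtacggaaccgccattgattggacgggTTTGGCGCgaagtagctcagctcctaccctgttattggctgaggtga
Pola1: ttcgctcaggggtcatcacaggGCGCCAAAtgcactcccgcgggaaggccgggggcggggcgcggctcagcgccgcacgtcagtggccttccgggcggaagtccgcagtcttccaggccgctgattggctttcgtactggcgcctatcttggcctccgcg

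Mcm5 holds 2 overlapping words, and Mcm6 holds 3, of which 2 overlap. In RefSeq windows of 300 bases (250 before and 50 after the start), 36 of the 45 members had a promoter sequence, and 14 of these (38.9%) held an E2F word, against 704 of 27025 genes (2.61%) in the whole promoter table. The share was the same among members that were lower in Mc5r-null (7 of 18) and among those that were not called (7 of 18). In the 250 bases upstream alone, 9 members held a word (25.0%), against 2.16% of all genes. The CCAAT box (CCAAT, either strand), the site of NF-Y, stood in 22 of the 36 members (61.1%) and in 41.1% of all genes. The CHR word TTTGAA (either strand), known from genes of G2 and mitosis, stood in 5 of the 36 members (13.9%), in 20.2% of all genes and in 15 of 20 G2 and mitosis genes. In the 250 bases upstream alone CHR stood in 5 of the 36 members, in 18.3% of all genes and in 7 of 20 G2 and mitosis genes. These are matches of letters only, and binding was not measured.

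Many of the members, though not all, were lower in Mc5r-null LSK cells, by small steps. Fitted changes were negative in 40 of the 45 members and positive in 5, where 50.7% of all genes tested were negative. Of the 45 members, all tested, 24 fell (53.3%), 0 rose and 21 were not called, where 32.9% of the 15257 genes tested were called, 16.1% lower and 16.8% higher (edgeR quasi-likelihood test, Benjamini-Hochberg adjusted p under 0.05). No member with a positive fold change had an unadjusted p under 0.05, and DESeq2 and limma-voom called none higher. The median log2 fold change of the members was -0.15 (range -0.94 to 0.16), against -0.0047 over all genes tested. All 3 Mc5r-null libraries lay below all 3 wild-type libraries in CPM for 35 of the 45 members (77.8%), and for 28.7% of all genes tested; the reverse held for 0 members and 21% of all genes tested. CPM is lowered in Mc5r-null by the immunoglobulin share, and after TMM scaling 29 members kept this separation, the 24 called ones among them, against 24.1% of all genes tested. Mcm6, Mcm7, Dtl, Pola1, Pole and Dut then overlapped. Members are well counted, from 172 to 9465 counts in a library, and abundant genes were called more often. Among tested genes with a mean of at least 500 counts 25.8% were called lower, and 20 of the 40 members at that level were. The median log2 fold change of all tested genes at that level was -0.030. Shares of genes with separated libraries were not computed at that level. DESeq2 called 15 of the 24 genes, and these 15 were called in all 14 alternative fits. Which cells of the sort carried the change cannot be read from bulk RNA, where fewer cycling cells and less replication RNA per cell cannot be told apart.

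**Figure D1:**
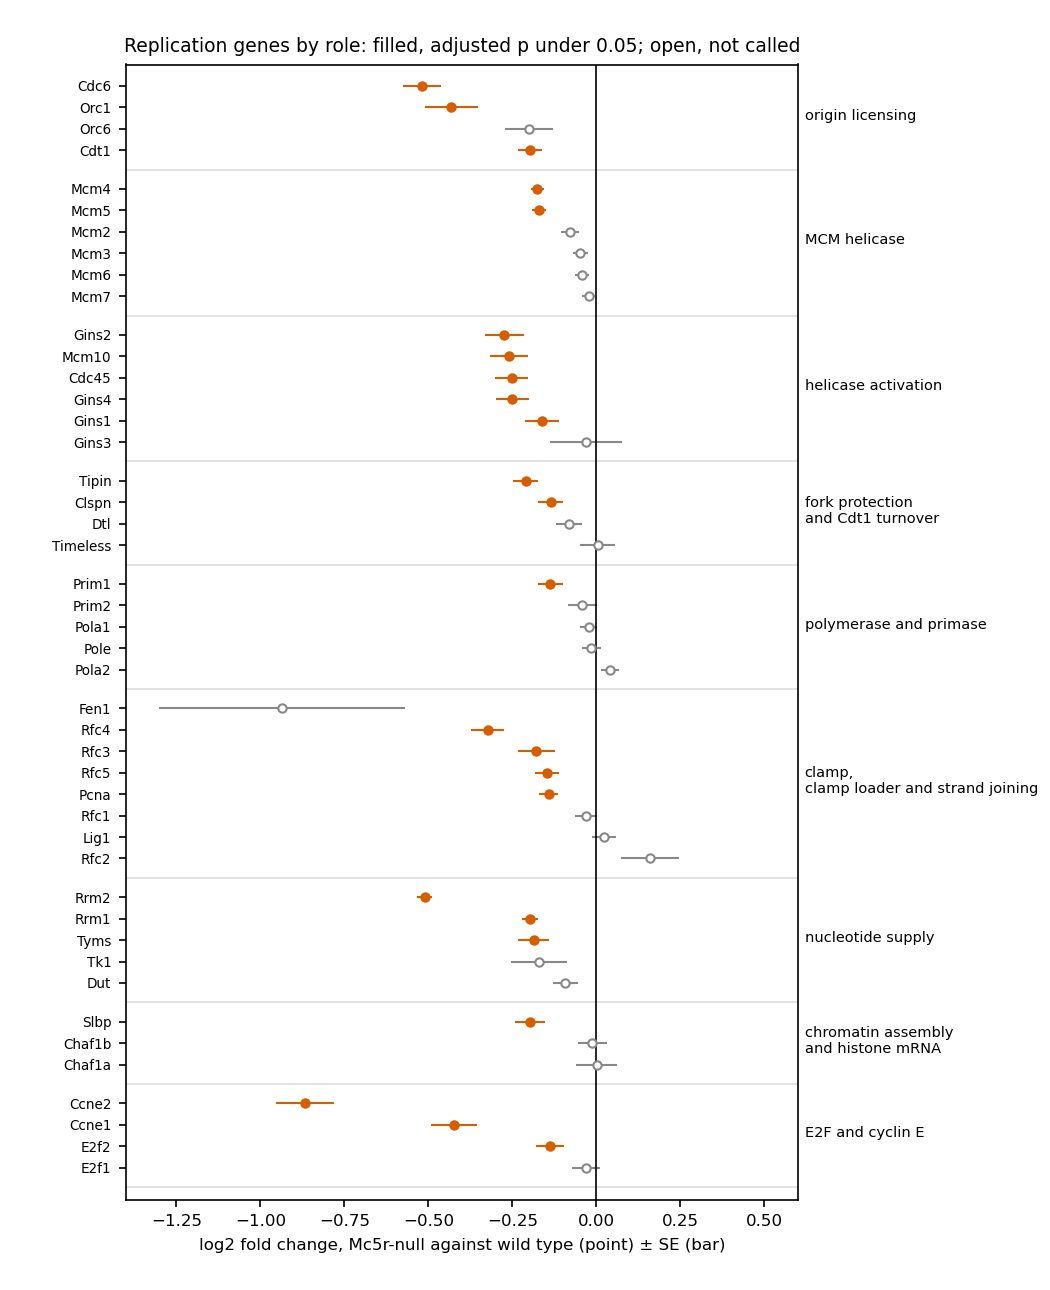
The fitted log2 fold change of each of the 45 replication genes (points) with its standard error (bars) is drawn by role, negative where the gene is lower in Mc5r-null; filled orange points passed an adjusted p of 0.05 and open grey points did not. The 24 filled points all lie left of 0, with Ccne2, Cdc6 and Rrm2 farthest out, and Fen1 has the widest bar.

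The genes that drive entry into S phase held the largest called change. Ccne2, which encodes cyclin E2, an activator of CDK2 (ENSMUSG00000028212, GRCm38 chromosome 4, 11191351 to 11204779, plus strand), had 390, 333 and 358 counts in wild type and 179, 172 and 193 in Mc5r-null. Every Mc5r-null library lay far below every wild-type library, and no other called member moved as much. Its mean fell from 24.1 ± 1.89 to 12.9 ± 0.808 CPM (SD, n = 3 each), a log2 fold change of -0.87 ± 0.086 (SE; edgeR adjusted p = 0.000138), or 1.83-fold. Of the merged exon bases of Ccne2, 17.4% are shared with Ints8 on the opposite strand. Ints8 had 714, 736 and 674 counts in wild type and 574, 519 and 560 in Mc5r-null. Whether the counting used strand is unknown, so reads in the shared stretch are uncertain.

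Ccne1, the other cyclin E gene (ENSMUSG00000002068, chromosome 7, 38097984 to 38107534, minus strand), had 331, 336 and 319 counts in wild type and 227, 232 and 216 in Mc5r-null. The groups did not overlap, and the fitted change was -0.42 ± 0.068 (SE; edgeR adjusted p = 0.00183). The ratio of Ccne2 to Ccne1 counts within a library, which does not depend on scaling between libraries, was 1.18, 0.991 and 1.12 in wild type and 0.789, 0.741 and 0.894 in Mc5r-null. Ccne2 therefore had the lower ratio to its partner in all 3 Mc5r-null libraries (log2 difference -0.44, exact two-sided permutation p = 0.1, the smallest that 3 against 3 libraries allow, and 0.125 adjusted over the 10 pairs compared).

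The activator E2F genes had small fitted changes. E2f2 had 968, 963 and 1005 counts in wild type and 846, 804 and 801 in Mc5r-null (log2 fold change -0.14 ± 0.042, edgeR adjusted p = 0.0349). That call was lost with DESeq2 (adjusted p = 0.248), with the replicate block (0.0745) and on leaving out any library but Mc5r-null replicate 1 (edgeR adjusted p from 0.0580 to 0.105). E2f1, the best known activator of S phase genes, had 1302, 1207 and 1260 counts in wild type and 1167, 1117 and 1105 in Mc5r-null. In CPM its groups overlapped, and the fitted change was -0.031 ± 0.041 (edgeR adjusted p = 0.613).

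All 4 licensing genes had Mc5r-null values below the wild-type values, and 3 of them fell, with a median log2 fold change of -0.32. Cdc6, the ATPase that joins the origin recognition complex to load MCM (ENSMUSG00000017499, chromosome 11, 98907801 to 98923940, plus strand), had 905, 1021 and 958 counts in wild type and 618, 638 and 593 in Mc5r-null. Its mean fell from 64.4 ± 3.94 to 43.9 ± 1.46 CPM, 1.43-fold (log2 fold change -0.52 ± 0.056, edgeR adjusted p = 0.000227). Orc1, the origin recognition subunit whose level cycles (ENSMUSG00000028587, chromosome 4, 108579423 to 108614833, plus strand), had 302, 333 and 287 counts in wild type and 205, 209 and 214 in Mc5r-null. It fell 1.35-fold, from 20.6 ± 1.56 to 14.9 ± 0.364 CPM (edgeR adjusted p = 0.00383).

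Cdt1, the partner of Cdc6 in loading, fell from 1476, 1530 and 1446 to 1166, 1206 and 1193 counts (log2 fold change -0.20 ± 0.035, edgeR adjusted p = 0.00323). The ratio of Cdc6 to Cdt1 was 0.613, 0.667 and 0.663 in wild type and 0.530, 0.529 and 0.497 in Mc5r-null (exact permutation p = 0.1, adjusted 0.125). Orc6, a smaller origin recognition subunit, had 800, 764 and 667 counts in wild type and 613, 594 and 576 in Mc5r-null and was not called (-0.20 ± 0.071, edgeR adjusted p = 0.0595). It was called without wild-type replicate 3 (adjusted p = 0.00931).

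Of the 6 subunits of the helicase that licensing loads, Mcm4 and Mcm5 fell, and Mcm2, Mcm3, Mcm6 and Mcm7 were not called; the median of the 6 was -0.063. Mcm4 had 4466, 4436 and 4420 counts in wild type and 3644, 3629 and 3563 in Mc5r-null (297 ± 1.08 to 257 ± 2.28 CPM; log2 fold change -0.18 ± 0.020, edgeR adjusted p = 0.000326). Mcm5 had 7660, 7524 and 7342 counts in wild type and 6118, 6114 and 6149 in Mc5r-null (-0.17 ± 0.020, edgeR adjusted p = 0.000382). For both genes the spread within a genotype was a small part of the gap between the genotypes.

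Mcm2 lay at the threshold, with 6012, 5975 and 5652 counts in wild type and 5146, 5061 and 5132 in Mc5r-null (log2 fold change -0.079 ± 0.026, edgeR adjusted p = 0.0501). It was called without wild-type replicate 3 (0.00895), with upper-quartile scaling (0.0373) and when low counts were kept (0.0385). Mcm3, Mcm6 and Mcm7 had fitted log2 fold changes of -0.048 ± 0.023, -0.043 ± 0.021 and -0.023 ± 0.020 (edgeR adjusted p = 0.146, 0.154 and 0.412). In each of the 6 subunits the Mc5r-null CPM values lay below the wild-type values, but after TMM scaling Mcm6 and Mcm7 overlapped. Per kilobase of merged exon the 6 genes ran in wild type from 133 ± 2.44 CPM for Mcm6 to 56.6 ± 1.82 CPM for Mcm2, and in Mc5r-null from 126 ± 2.22 to 52.4 ± 0.589 CPM (SD, n = 3 each). Set against Mcm2, Cdc6 had a count ratio of 0.151, 0.171 and 0.169 in wild type and 0.12, 0.126 and 0.116 in Mc5r-null (log2 difference -0.44, exact permutation p = 0.1, adjusted 0.125).

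**Figure D2:**
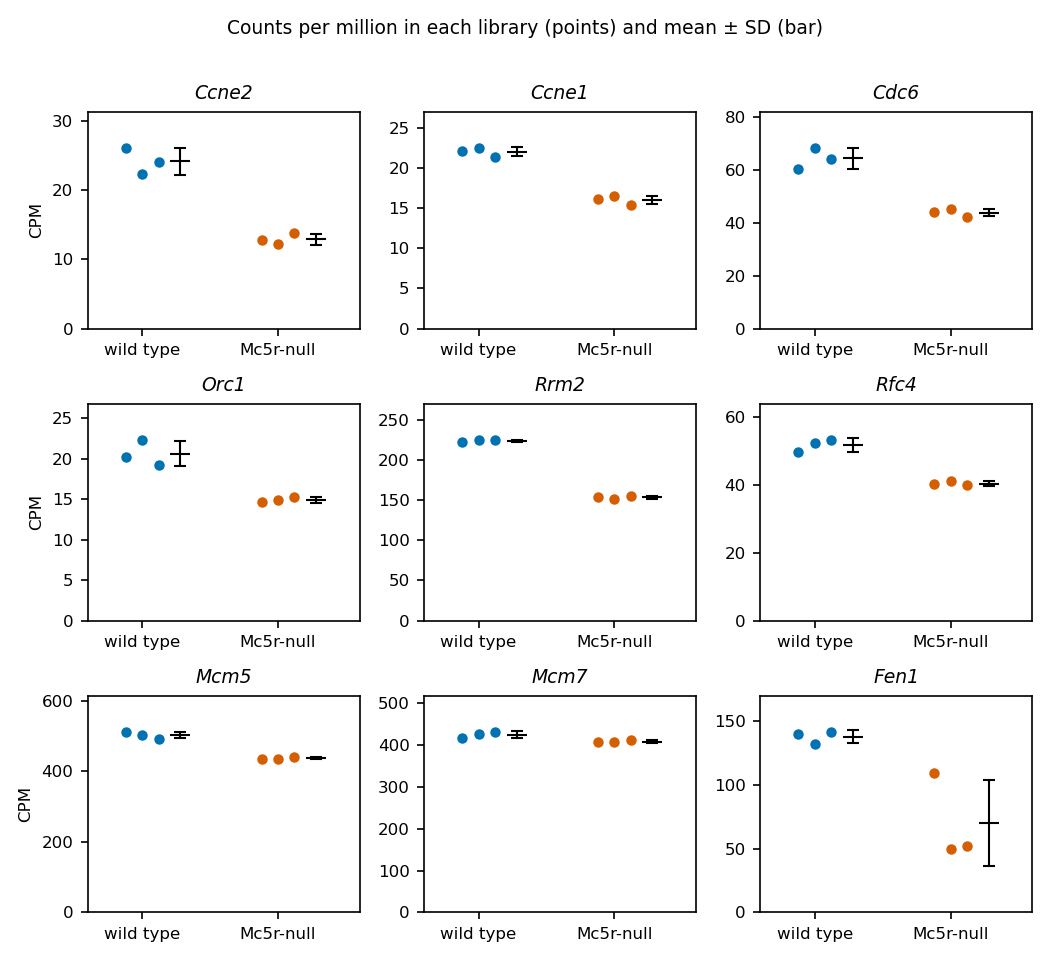
CPM values (vertical axes, from 0) of 9 members are drawn for the 3 wild-type libraries (blue) and the 3 Mc5r-null libraries (orange), with the mean and SD in black. Ccne2, Ccne1, Cdc6, Orc1, Rrm2, Rfc4 and Mcm5 form separate groups, Mcm7 differs by a few percent, and 1 of the 3 Fen1 values in Mc5r-null stands between the other 2 and the wild-type values.

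Of the 6 factors that switch the loaded helicase on 5 fell, and the median of the 6 was -0.25. Cdc45, the subunit that completes the active helicase with MCM and GINS, had 1265, 1292 and 1310 counts in wild type and 1020, 1042 and 920 in Mc5r-null (-0.25 ± 0.050, edgeR adjusted p = 0.00560). Gins4, of the same assembly, had 693, 757 and 730 counts in wild type and 556, 570 and 558 in Mc5r-null (-0.25 ± 0.050, edgeR adjusted p = 0.00593). In both, the highest Mc5r-null value stayed well under the lowest wild-type value.

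Gins2 had 537, 547 and 573 counts in wild type and 436, 424 and 398 in Mc5r-null (-0.27 ± 0.058, edgeR adjusted p = 0.00738). Of its merged exon bases 67.3% are shared with Gse1 on the opposite strand. Gse1 had 2753, 2773 and 2841 counts in wild type and 2913, 2848 and 2859 in Mc5r-null. Mcm10, a scaffold for helicase activation, had 1019, 1065 and 1131 counts in wild type and 874, 783 and 807 in Mc5r-null (-0.26 ± 0.056, edgeR adjusted p = 0.00817). Gins1 was called narrowly (-0.16 ± 0.050, edgeR adjusted p = 0.0396), and the call was lost with DESeq2 (adjusted p = 0.25), with the replicate block (0.0676), without the immunoglobulin genes (0.0505) and without any library other than Mc5r-null replicate 1 (edgeR adjusted p from 0.0684 to 0.118). Gins3, the remaining GINS subunit and the member with the lowest level per kilobase in wild type, had 253, 199 and 255 counts in wild type and 204, 219 and 212 in Mc5r-null, which overlap (-0.032 ± 0.11, edgeR adjusted p = 0.848).

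Of the genes that protect the fork or turn Cdt1 over, 2 of 4 fell, with a median of -0.11. Tipin, which travels with the fork, had 1527, 1554 and 1474 counts in wild type and 1172, 1199 and 1244 in Mc5r-null (-0.21 ± 0.037, edgeR adjusted p = 0.00317). Its binding partner Timeless had 1370, 1381 and 1363 counts in wild type and 1333, 1297 and 1158 in Mc5r-null, with groups that overlap in CPM and a fitted change of 0.0034 ± 0.052 (edgeR adjusted p = 0.969). The Timeless to Tipin ratio was 0.897, 0.889 and 0.925 in wild type and 1.14, 1.08 and 0.931 in Mc5r-null, higher in all 3 libraries, although replicate 3 nearly reached the wild-type values (exact permutation p = 0.1, adjusted 0.125). Clspn, the claspin gene of the replication checkpoint, had 1073, 1084 and 1058 counts in wild type and 906, 871 and 910 in Mc5r-null (-0.14 ± 0.037, edgeR adjusted p = 0.0228). Its call was lost with DESeq2 (adjusted p = 0.217), with the replicate block (0.0594) and when wild-type replicate 1, wild-type replicate 2 or Mc5r-null replicate 2 was left out (0.0585, 0.0670 and 0.0721 with edgeR). Dtl, which marks Cdt1 for destruction in S phase, was not called (-0.081 ± 0.039, edgeR adjusted p = 0.146).

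The polymerase and primase genes had a median close to 0, -0.022, with 1 of 5 called. Prim1, the catalytic primase subunit, had 1175, 1146 and 1158 counts in wild type and 941, 988 and 977 in Mc5r-null (-0.14 ± 0.036, edgeR adjusted p = 0.0207). The Prim1 call was lost with DESeq2 (adjusted p = 0.202), with the replicate block (0.0553) and when wild-type replicate 1, wild-type replicate 3 or Mc5r-null replicate 1 was left out (0.0635, 0.0516 and 0.0615 with edgeR). Pola2, the B subunit of polymerase alpha, had 1665, 1663 and 1679 counts in wild type and 1579, 1582 and 1568 in Mc5r-null, or 112 ± 0.743 and 112 ± 0.134 CPM (0.040 ± 0.027, edgeR adjusted p = 0.301). Pola1, the catalytic subunit and an X-linked gene, Pole, the catalytic subunit of the leading-strand polymerase, and Prim2, the large primase subunit, had fitted changes of -0.022 ± 0.025, -0.015 ± 0.029 and -0.042 ± 0.043 (edgeR adjusted p = 0.543, 0.744 and 0.505).

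Among the clamp, clamp loader and strand joining genes 4 of 8 fell, and the fitted changes of the 5 loader subunits ran from -0.32 to 0.16. Pcna, the sliding clamp gene and the member with the highest level per kilobase in wild type, had 4947, 4936 and 4966 counts in wild type and 4252, 4170 and 3936 in Mc5r-null (332 ± 1.43 to 293 ± 10.8 CPM; -0.14 ± 0.029, edgeR adjusted p = 0.00661, and 0.0645 with DESeq2). Rfc4, a small subunit of the loader, had 740, 781 and 793 counts in wild type and 563, 579 and 556 in Mc5r-null. It fell 1.25-fold (-0.32 ± 0.048, edgeR adjusted p = 0.00128). Of its merged exon bases 12.7% are shared with Eif4a2 on the opposite strand. Eif4a2 had 4498, 4726 and 4625 counts in wild type and 3814, 3847 and 3581 in Mc5r-null. The part of this overlap in the fall was not tested.

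The small subunit genes Rfc3 and Rfc5 fell by 0.18 ± 0.056 and 0.15 ± 0.037 on the log2 scale (edgeR adjusted p = 0.0393 and 0.0160). Both calls were lost with DESeq2 (adjusted p = 0.212 and 0.153). The Rfc3 call was also lost with the replicate block (0.0639) and on leaving out any library but Mc5r-null replicate 3 (from 0.0680 to 0.119 with edgeR), and the Rfc5 call without wild-type replicate 3 (0.0536). Rfc1, the large subunit, was not called (-0.030 ± 0.033, edgeR adjusted p = 0.526). Rfc2 had the highest fitted change of the members, 0.16 ± 0.086 (edgeR adjusted p = 0.220), and its counts of 2469, 2950 and 3072 in wild type had the highest chi-square against counting noise of any member in that genotype, while Mc5r-null had 2873, 2864 and 2978. Without wild-type replicate 1 the fitted change was 0.068 (edgeR adjusted p = 0.167).

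Fen1, the flap endonuclease that trims Okazaki fragments (ENSMUSG00000024742, chromosome 19, 10199132 to 10204169, minus strand), had the most negative fitted change of all members and was not called. It had 2084, 1972 and 2109 counts in wild type and 1534, 696 and 732 in Mc5r-null, so Mc5r-null replicate 1 stood at more than double the other 2 libraries, though still below wild type. The fitted change was -0.94 ± 0.37 (edgeR adjusted p = 0.132). It was -1.4 without Mc5r-null replicate 1 (adjusted p = 6.38e-07), and limma-voom called the gene with all libraries (0.0198). Fen1 was the single member with a spread of 2-fold or more within a genotype, a spread found in Mc5r-null in 1.95% of tested genes with a mean of at least 100 counts. Its neighbour Tmem258, on the opposite strand and sharing 5.37% of the merged exon bases of Fen1, ran the other way, with 594 counts in Mc5r-null replicate 1 against 771 and 745 in replicates 2 and 3. Another 78.8% of the exon bases are shared with the antisense gene Gm10143, which had 18 to 35 counts. The deposited FPKM of Fen1 implies a length of 7006 bases. That is above its 2422 merged exon bases and its gene span of 5038 bases, and what its counts hold is uncertain. Long implied lengths were not confined to Fen1. They were over 1.5 times the merged exons in 16 of the 45 members, and the median over the members was 1.41 times. The part of the Tmem258 and Gm10143 overlaps in the Fen1 spread was not tested. Lig1, the ligase that seals the fragments, had 4054, 4096 and 3815 counts in wild type and 3605, 3866 and 3692 in Mc5r-null and was not called (0.022 ± 0.036, edgeR adjusted p = 0.679).

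Nucleotide supply held the member with the smallest p. Rrm2, the small subunit of ribonucleotide reductase whose level limits the enzyme in S phase (ENSMUSG00000020649, chromosome 12, 24708241 to 24714146, plus strand), had 3334, 3359 and 3361 counts in wild type and 2165, 2136 and 2178 in Mc5r-null. The fitted change was -0.51 ± 0.023, or 1.43-fold (edgeR adjusted p = 7.97e-07). Rrm1, the large subunit, which is more stable through the cycle, had 6121, 6276 and 5981 counts in wild type and 4940, 4942 and 4838 in Mc5r-null (-0.20 ± 0.023, edgeR adjusted p = 0.000354). The small subunit was also lower relative to the large one in every Mc5r-null library. The Rrm2 to Rrm1 count ratio was 0.545, 0.535 and 0.562 in wild type and 0.438, 0.432 and 0.450 in Mc5r-null (log2 difference -0.31, exact permutation p = 0.1, adjusted 0.125).

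Tyms, the thymidylate synthase gene, had 962, 988 and 1047 counts in wild type and 799, 829 and 791 in Mc5r-null (-0.19 ± 0.046, edgeR adjusted p = 0.0151, and 0.1 with DESeq2). Dut, the dUTPase gene that keeps uracil out of DNA, had 2885, 2728 and 2958 counts in wild type and 2392, 2547 and 2444 in Mc5r-null and was not called (-0.093 ± 0.037, edgeR adjusted p = 0.0933; 0.0351 without wild-type replicate 2). Tk1, the salvage enzyme thymidine kinase, had 1078, 1279 and 1012 counts in wild type and 924, 905 and 920 in Mc5r-null (-0.17 ± 0.083, edgeR adjusted p = 0.163; 0.0403 without wild-type replicate 3). All 5 genes of this role had Mc5r-null CPM values below the wild-type values, and after TMM scaling Dut overlapped.

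Of the 3 genes of chromatin assembly and histone mRNA, Slbp fell. It encodes the protein that binds the stem-loop of replication-dependent histone mRNA, and had 1403, 1342 and 1361 counts in wild type and 1083, 1047 and 1160 in Mc5r-null (-0.20 ± 0.045, edgeR adjusted p = 0.0101, and 0.0536 with DESeq2). The genes of the CAF-1 histone chaperone were not called, with fitted changes of -0.012 ± 0.043 for Chaf1b and 0.00073 ± 0.060 for Chaf1a (edgeR adjusted p = 0.859 and 0.995). Chaf1a shares 52.5% of its merged exon bases with Ubxn6 on the opposite strand. Ubxn6 had 608, 678 and 613 counts in wild type and 668, 691 and 676 in Mc5r-null. The Chaf1b to Chaf1a ratio, 0.423 to 0.477 in wild type and 0.425 to 0.461 in Mc5r-null, overlapped between genotypes (exact permutation p = 0.8).

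By role, the median log2 fold changes ran from origin licensing (-0.32), E2F and cyclin E (-0.28), helicase activation (-0.25) and nucleotide supply (-0.19) through clamp, loader and strand joining (-0.14) and fork protection and Cdt1 turnover (-0.11) to MCM helicase (-0.063), polymerase and primase (-0.022) and chromatin assembly and histone mRNA (-0.012). This order describes 3 to 8 genes per role, was not tested and did not hold in the wider list of replication genes. Summed over its genes, origin licensing went from 234 ± 9.58 to 186 ± 1.99 CPM and polymerase and primase from 514 ± 3.47 to 493 ± 2.82 CPM (SD, n = 3 each), both before allowing for the immunoglobulin share. Of the 10 partner pairs compared, 8 had ratios that did not overlap between genotypes. No share over other gene pairs was computed, so whether this count is particular to these pairs is unknown. The Prim1 to Prim2 ratio overlapped, at 1.26 to 1.31 in wild type and 1.17 to 1.28 in Mc5r-null (exact permutation p = 0.2).

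By count level, more of the called members stood among those with fewer counts. The 22 members with the lower mean counts (224 to 1230) had a median log2 fold change of -0.18, with 16 called, and the 23 with the higher mean counts (1233 to 8789) a median of -0.079, with 8 called. Regulators such as Ccne2, Ccne1, Orc1 and Cdc6 stand in the first set, but so do E2f1 (-0.031) and Gins3 (-0.032), which were not called. All 6 MCM genes stand in the second, as does the licensing gene Cdt1 (-0.20), which was called lower. Rrm2 and Fen1 are abundant members with large fitted changes. Per kilobase of merged exon, Pcna (138 ± 0.597 CPM) and Mcm6 led the members in wild type, and Mcm6 and Pcna (122 ± 4.50 CPM) in Mc5r-null, where the Pcna and Mcm6 values overlapped. Rrm2 went from 81.0 ± 0.487 to 55.5 ± 0.728 CPM per kilobase and from rank 7 to rank 9 of the 45. Ccne2 went from 6.91 ± 0.541 to 3.70 ± 0.231 CPM per kilobase, from rank 43 to rank 45, beside Orc1 at rank 44 in both genotypes (5.92 ± 0.449 and 4.29 ± 0.105 CPM per kilobase; SD, n = 3 each).

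**Figure D3:**
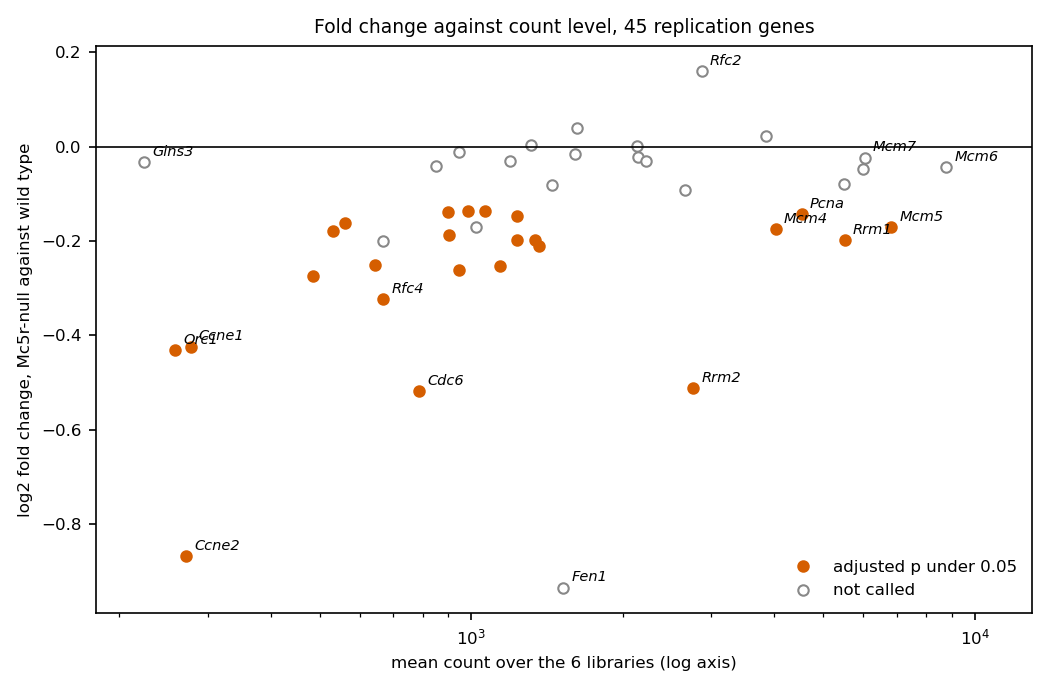
The fitted log2 fold change (vertical axis) is set against the mean count over the 6 libraries (horizontal log axis) for the 45 members; filled points passed an adjusted p of 0.05. Ccne2, Ccne1, Orc1 and Cdc6 lie low on the left, where Gins3 lies near 0, and Mcm6 and Mcm7 lie near 0 on the right.

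A wider list of replication genes outside the members was read from the same fit. It too was chosen with earlier results of these data known. Of 79 such genes 78 were tested, and 26 fell, 3 rose and 49 were not called, and the median log2 fold change was -0.095. A share of 33.3% fell, against 16.1% of all genes tested. Among those with a mean of at least 500 counts it was 22 of 55 (40.0%), against 25.8% of all genes at that level. The order of the roles was not that of the members: origin licensing had a median of -0.061 with 2 of 7 lower, and chromatin assembly and histone mRNA had the most negative median, -0.14 with 6 of 8 lower. E2f8, an E2F repressor gene that is itself induced in S phase, had 1551, 1662 and 1627 counts in wild type and 1065, 1041 and 1085 in Mc5r-null (-0.48 ± 0.038, edgeR adjusted p = 3.54e-05). Rpa3, the smallest subunit of the single-strand binding complex RPA, had 355, 323 and 331 counts in wild type and 216, 226 and 202 in Mc5r-null (-0.53 ± 0.076, edgeR adjusted p = 0.00110). Asf1b, a histone chaperone gene of proliferating cells, had 865, 887 and 814 counts in wild type and 552, 583 and 637 in Mc5r-null (-0.41 ± 0.063, edgeR adjusted p = 0.00150). In each of these 3 genes the groups were far apart.

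Other falls with the smallest p of their role were Orc3, an origin recognition subunit (-0.30 ± 0.040), Hat1, the acetyltransferase of new histones (-0.27 ± 0.034), Dna2, an Okazaki fragment nuclease (-0.30 ± 0.053), Dtymk, the thymidylate kinase gene (-0.22 ± 0.029), Mcmbp, an MCM-binding protein gene (-0.17 ± 0.029), and Topbp1, an activator of origin firing (-0.15 ± 0.020). Their edgeR adjusted p ran from 0.000525 to 0.00317. In the fork and Cdt1 turnover role none of 4 was called, and the smallest p was that of Ddb1, the adaptor through which Dtl works (-0.071 ± 0.024, edgeR adjusted p = 0.0503). The 3 that rose, named after their values were seen, were the topoisomerase gene Top1 (0.084 ± 0.021, edgeR adjusted p = 0.0165), the dNTPase gene Samhd1 (0.097 ± 0.031, 0.0400) and the pocket protein gene Rbl2 (0.13 ± 0.042, 0.0450). DESeq2 called none of these 3 (adjusted p = 0.254, 0.296 and 0.25), and each edgeR call was lost without at least 3 of the 6 libraries in turn (Top1 up to 0.0624, Samhd1 up to 0.121 and Rbl2 up to 0.133).

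Markers of the cell types in or beside the gate also differed between the genotypes, some lower and some higher in Mc5r-null. The 45 members together took 6821 ± 52.7 CPM in wild type against 6120 ± 49.9 CPM in Mc5r-null, and 6970 ± 53.8 and 6575 ± 51.2 CPM once immunoglobulin counts were left out of the library totals (SD, n = 3 each). The gene lists here were chosen with earlier results of these data known, and of all genes tested 16.1% were called lower and 16.8% higher. Of 13 myeloid progenitor markers 12 fell, and their summed level was 18615 to 19823 CPM in wild type against 11948 to 12243 CPM in Mc5r-null. Of 15 markers of long-term stem cells 14 rose, with summed levels of 315 to 348 and 488 to 497 CPM. All 10 plasma cell markers rose (11656 to 11732 and 37093 to 39529 CPM), as did all 8 erythroid markers (26.7 to 27.8 and 170 to 171 CPM). Of 8 LSK markers 3 rose and 1 fell (2341 to 2395 and 2612 to 2636 CPM). No marker of these lists was at 0 in all libraries, and the part of the cell make-up in the lower replication genes was not tested. Of 23 genes of G2 and mitosis 10 fell and 1 rose, with a median of -0.075 and summed levels of 2684 to 2735 CPM in wild type against 2476 to 2505 CPM in Mc5r-null.

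**Figure D4:**
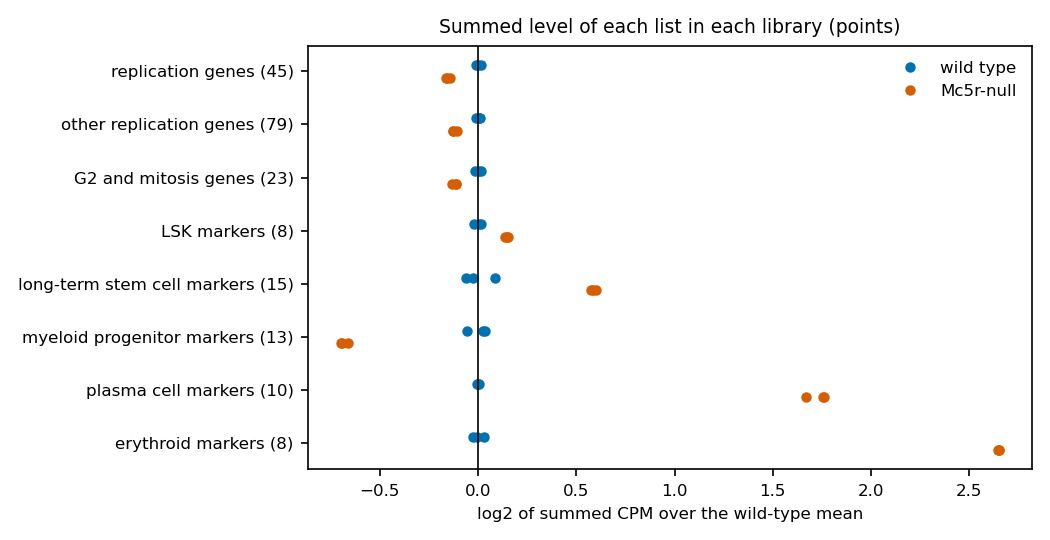
The summed CPM of each gene list in each library is drawn as log2 of its ratio to the wild-type mean (horizontal axis; blue wild type, orange Mc5r-null, number of genes in brackets). The replication and mitosis lists lie slightly left of 0 in Mc5r-null, myeloid progenitor markers farther left, and LSK, stem cell, plasma cell and erythroid markers to the right.

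The libraries of a genotype lay close together for these genes. The chi-square per degree of freedom against counting noise had a median of 1.18 for the members in wild type and 0.658 in Mc5r-null. Counting noise alone gives a median of 0.693. Tested genes with a mean of at least 100 counts had medians of 1.18 in wild type and 1.18 in Mc5r-null. In wild type the members thus lay about as close together as other well-counted genes. The widest ratio of highest to lowest count among members was 1.28 in wild type (Gins3) and, apart from Fen1, 1.15 in Mc5r-null. Of the 45 members 16 share exonic bases with another annotated gene, in most cases on the opposite strand. Shares not given above include Rfc2 with Lat2 (15.1%), Orc1 with Gm12743 (10.8%) and Rfc5 with Wsb2 (10.7%).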

How the data were processed

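Poly-A RNA of LSK cells was sequenced as paired-end stranded libraries, per the labels' protocols. The authors deposited 1 table with whole-number counts per gene and FPKM values, per the file headers. CASAVA 1.8, HISAT2, StringTie, edgeR and GRCm38 are named without roles, per the submitters' processing notes; the counting program, annotation release and use of strand are not given in the sources used here. The deposited FPKM values imply lengths of 1 to 2.89 times the merged GENCODE M21 exons of the members, the highest for Fen1, so levels per kilobase were computed from counts and merged exons instead.

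The count model was edgeR 4.0.16 (R 4.3.3): filterByExpr (minimum count 10, minimum total 15), TMM scaling and the robust quasi-likelihood F-test of genotype over all genes, called at a Benjamini-Hochberg adjusted p under 0.05. CPM divides by the total of all gene counts. Partner ratios used an exact two-sided permutation test. Promoters came from RefSeq, GRCm38.p6. The fit was tested on simulated data. It called 68 of 100 genes changed 1.5-fold, 93 of 100 changed 2-fold and 11 of 15057 unchanged genes. Smaller changes were not simulated.

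The members and lists were chosen with earlier results of these data known. Every member could be named. Counts per library were planned for called members with a log2 change of at least 0.25 and for up to 2 per role with the smallest p, and are also given for further members. Named from the wider list were called genes with a change of at least 0.4 and 1 per role with the smallest p. Sex-linked genes, Mc5r and Tmem258 joined later, with the values known, as did the count of separated groups after TMM scaling. Other settings tried were DESeq2 1.42.0, RLE or upper-quartile scaling, limma-voom (limma 3.58.1), other filters and thresholds, the replicate block, omission of immunoglobulin genes and leaving out each library.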

Additional observations from a re-analysis of the deposited data

How the results depend on the processing

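No called member changed direction in any alternative. DESeq2 called 15 members lower, 16 of the wider list lower and 0 higher, and 1446 lower and 1655 higher of all genes; at an adjusted p under 0.01 edgeR called 16 members and 16 of the wider list lower and 0 of the wider list higher, and 1444 lower and 1552 higher of all genes. Leaving out each library in turn gave 19 to 23 members lower and 0 to 2 of the wider list higher. The wider list had 1 gene higher with upper-quartile scaling, with no low-count filter and with the replicate block. Replicate numbers did not pair the libraries (correlations of deviations 0.0025, -0.041 and -0.024, and no library correlated best with its own number). The replicate block gave 20 members lower. It lost Gins1, Clspn, Prim1, Rfc3 and E2f2 and gained a member that the main fit had not called. The median of all members was -0.14 without immunoglobulin genes and -0.16 to -0.15 without 1 library. Without 1 library the medians ran from -0.38 to -0.28 for origin licensing, -0.089 to -0.051 for MCM helicase, -0.28 to -0.22 for helicase activation, -0.22 to -0.17 for nucleotide supply and -0.067 to 0.0054 for chromatin assembly, and the Chaf1b to Chaf1a log2 difference from -0.056 to 0.031. The upstream window held E2F words in 9 members. Directions turned, with the cause not tested, only in members that were not called: without 1 library Gins3 ran from -0.14 to 0.026, Timeless from -0.038 to 0.062, Lig1 from -0.011 to 0.044, Chaf1a from -0.067 to 0.059 and Chaf1b from -0.040 to 0.012; with upper-quartile scaling Timeless was at -0.0032 and Chaf1a at -0.0057, and with no filter at -0.00075 and -0.0034. With 3 libraries per genotype the exact tests cannot pass 0.05, and changes of a few percent lie near the limit of these counts.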
